A study of Mus musculus with 6 samples.

Results

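The genes described here are 10 genes of the adipogenic transcription cascade: the CCAAT/enhancer binding proteins Cebpa, Cebpb and Cebpd, the Krüppel-like factors Klf4, Klf5 and Klf15, the commitment factor Zfp423, the inhibitor Dlk1 and the adipocyte genes Adipoq and Fabp4. They were taken by name, as a set, with earlier results of these data known. Each was read from the brightest probe set that names only that gene. All 10 had such a probe set, 1 each, among the 19938 genes that could be read in this way. The arrays compared C2C12 cells, a mouse myoblast line, that carried a lentiviral shRNA against PARP2 (shPARP2) with C2C12 cells that carried a scrambled shRNA (scPARP2). The silencing shRNA was kept in the cells with puromycin, according to the methods of the study, and both lines grew in high-glucose medium with serum. Each group is a single line made with 1 shRNA sequence, and 3 samples of each line were hybridized, 1 sample to an Affymetrix mouse gene array. No source used here says that the 3 samples were separate cultures, so the p-values speak only of the scatter among these samples, and that scatter may be technical.

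During adipogenesis, C/EBPβ and C/EBPδ appear first, after hormonal stimulation, and switch on C/EBPα and the nuclear receptor PPARγ, which then maintain each other and activate the genes of the mature fat cell. Klf4 acts early, upstream of C/EBPβ, whereas Klf5 and Klf15 act later, upstream of PPARγ and its targets. Zfp423 commits precursor cells to the fat lineage, and Dlk1 (Pref-1) holds preadipocytes undifferentiated. Myoblasts share a mesenchymal origin with fat cells, and forced PPARγ and C/EBPα are known to push myoblasts toward the adipocyte fate.

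To show where called genes differ in their control regions, the 250 bases before the transcription start are given for Cebpa, which fell, for Cebpb and Klf4, which rose, and for Adipoq, a product of the mature fat cell that C/EBPα is known to activate. The sequences are from RefSeq on GRCm38.p6, and the promoter table matched 7 of the 10 genes. No promoter was matched for Cebpd, the remaining called gene, or for Klf5 and Fabp4. Capitals mark matches on either strand to TTNNGNAA (a loose C/EBP site), CACCC (a box bound by Krüppel-like factors), TGACG (the half-site of the cAMP response element), GGGCGG (the GC box) and TATAAA (the TATA box). Cebpa lies at chr7:35119043-35119292 on the plus strand, Cebpb at chr2:167688665-167688914 on the plus strand, Klf4 at chr4:55532476-55532725 on the minus strand and Adipoq at chr16:23146286-23146535 on the plus strand.
Cebpa: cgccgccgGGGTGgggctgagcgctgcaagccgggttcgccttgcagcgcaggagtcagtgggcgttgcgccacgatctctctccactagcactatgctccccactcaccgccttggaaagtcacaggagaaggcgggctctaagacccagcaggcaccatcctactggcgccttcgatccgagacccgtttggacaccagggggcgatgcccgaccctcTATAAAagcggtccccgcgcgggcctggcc
Cebpb: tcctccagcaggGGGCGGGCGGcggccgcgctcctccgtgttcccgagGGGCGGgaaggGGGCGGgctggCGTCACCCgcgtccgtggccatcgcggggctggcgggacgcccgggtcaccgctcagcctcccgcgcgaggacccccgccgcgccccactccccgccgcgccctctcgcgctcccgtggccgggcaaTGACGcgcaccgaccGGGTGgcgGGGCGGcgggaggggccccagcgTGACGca
Klf4: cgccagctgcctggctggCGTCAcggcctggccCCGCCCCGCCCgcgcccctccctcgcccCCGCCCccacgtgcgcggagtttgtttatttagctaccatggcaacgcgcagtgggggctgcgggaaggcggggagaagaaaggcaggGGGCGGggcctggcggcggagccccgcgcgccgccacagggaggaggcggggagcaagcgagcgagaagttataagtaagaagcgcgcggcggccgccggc
Adipoq: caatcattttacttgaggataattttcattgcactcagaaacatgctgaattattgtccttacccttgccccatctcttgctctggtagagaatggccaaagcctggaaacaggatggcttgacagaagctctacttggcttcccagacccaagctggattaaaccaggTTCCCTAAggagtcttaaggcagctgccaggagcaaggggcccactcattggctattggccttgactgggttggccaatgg

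The window of Cebpa held a TATA box that began 30 bases before the start and 1 CACCC box, with no GC box and no cAMP half-site. A TATA box of these letters stood in 12.4% of all 32851 promoter windows. The window of Cebpb held 5 GC boxes, of which the first and the next one overlap by 2 bases, and 3 cAMP half-sites, of which 1 overlaps a CACCC box. That of Klf4 held 4 GC boxes, of which a pair overlaps by 1 base, and 1 half-site. Over all windows, 32.7% held a GC box and 17.8% a cAMP half-site. The GC content was 66.4% for Cebpa, 81.6% for Cebpb, 74.0% for Klf4 and 48.8% for Adipoq. The loose C/EBP letters were found once in the window of Adipoq and in none of the 3 others, where 36.8% of all windows hold them. Of the windows not printed, those of Dlk1 and Zfp423 also held these letters, and that of Klf15 did not. These matches describe the letters of the windows and were not tested as binding sites.

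Across the 10 genes, Cebpa was lower in shPARP2 cells, Cebpb, Cebpd and Klf4 were higher, and the other 6 did not pass the test. The test was limma on the log2 values, Benjamini-Hochberg adjustment covered all probe sets of the array, and a gene was called at an adjusted p under 0.05. The share called was thus 4 of 10, while 24.0% of all genes were called, 12.4% as higher and 11.6% as lower. At or above the 40th percentile of mean signal, where all but 2 of the 10 genes lie, 34.1% of genes were called. Because the genes were chosen with earlier results of these data known, these shares do not test the set. The median log2 fold change of the 10 genes was 0.11, beside -0.02 for all genes. The groups did not overlap for 6 of the 10 genes, compared with 42.1% of all genes (20.7% with shPARP2 above, 21.4% with shPARP2 below). With a change of at least 1.5-fold as well, Cebpa and Cebpd passed, 2 of 10, beside 10.1% of all genes. Parp2 itself, the silenced gene, had a log2 signal of 9.04 ± 0.10 in scPARP2 and 7.97 ± 0.15 in shPARP2 cells (SD, n = 3 each), a difference of -1.07 (limma adjusted p = 0.00103). The array medians lay between 7.04 and 7.18 on the log2 scale, and replicates scattered more in shPARP2 than in scPARP2 cells, as the SD of a probe set had a median of 0.142 against 0.0753.

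**Figure D1:**
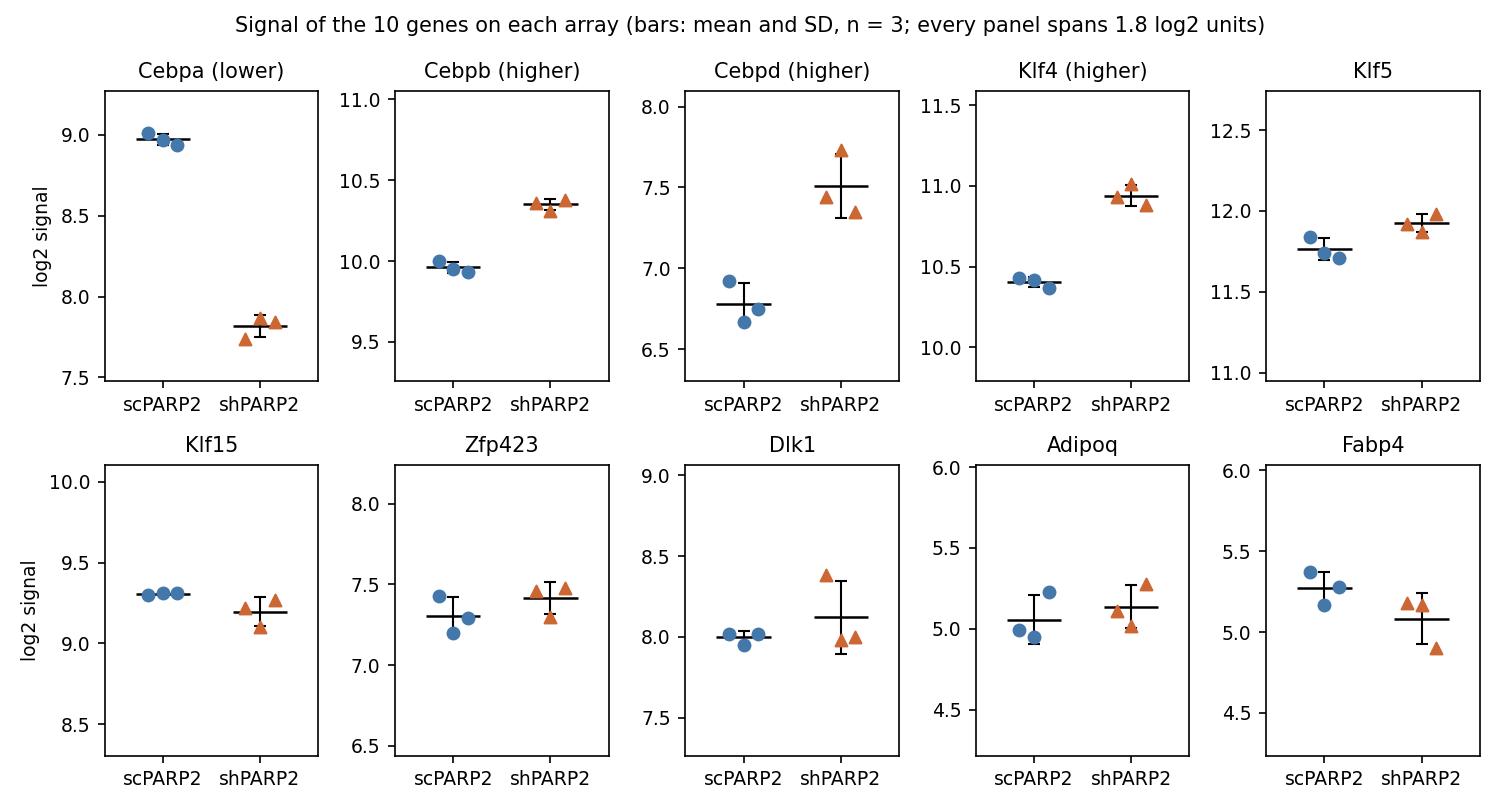
Log2 signal (vertical axis) of each of the 10 genes on the 3 scPARP2 arrays (blue circles) and the 3 shPARP2 arrays (orange triangles), with bars for the mean and the SD. Cebpa drops from 8.97 to 7.81, while Cebpb, Cebpd and Klf4 stand higher on every shPARP2 array than on any scPARP2 array.

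The C/EBP factors moved in opposite directions. Cebpa, the late factor that stops proliferation and sustains the fat cell programme, read 9.01, 8.97 and 8.94 on the scPARP2 arrays and 7.74, 7.87 and 7.84 on the shPARP2 arrays (log2 signal). The lowest scPARP2 array thus lay above the highest shPARP2 array by far more than the spread within either line. The difference was -1.16 on the log2 scale (standard error, SE, 0.07, 95% confidence interval -1.32 to -1.0, limma adjusted p = 0.000209), and 44.8% of the signal remained. Only 2.58% of all genes had a larger absolute log2 fold change.

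Cebpb, an early factor that is also known to hold muscle stem cells back from differentiation, read 10.00, 9.95 and 9.93 in scPARP2 and 10.36, 10.31 and 10.38 in shPARP2 cells. All 3 shPARP2 values were higher, and both lines were tight, with an SD of 0.03 each. On the log2 scale the rise was 0.39 (SE 0.06, 95% confidence interval 0.24 to 0.54, limma adjusted p = 0.00678), or 1.31-fold. The change was thus small but larger than the spread between replicates.

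Cebpd, the other early factor and an acute-phase gene that responds to cytokines and glucocorticoids, read 6.92, 6.67 and 6.75 in scPARP2 and 7.44, 7.73 and 7.35 in shPARP2 cells. The lines did not overlap, although the replicates scattered more than those of Cebpb. The log2 difference came to 0.73 (SE 0.12, 95% confidence interval 0.44 to 1.02, limma adjusted p = 0.00860), or 1.66-fold. Cebpd was near the middle of the array, at the 50.3rd percentile of mean signal, whereas Cebpb was at the 84.9th and Cebpa at the 67.3rd. Such percentiles describe the brightness of a probe set and do not rank mRNA amounts between genes.

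Klf4, which acts early in adipogenesis and is better known as a pluripotency factor, was higher in shPARP2 cells. It read 10.43, 10.42 and 10.37 in scPARP2 and 10.93, 11.01 and 10.88 in shPARP2 cells, so that the lines were clearly apart. The rise was 0.53 on the log2 scale (SE 0.07, 95% confidence interval 0.37 to 0.69, limma adjusted p = 0.00300), or 1.45-fold. The calls of Cebpa, Cebpb, Cebpd and Klf4 were kept in each of the 13 other fits, with adjusted p-values of at most 0.0467.

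The later Krüppel-like factors differed little. Klf5, a bright gene at the 95.6th percentile that activates Pparg together with the C/EBP factors, read 11.84, 11.74 and 11.71 in scPARP2 and 11.92, 11.87 and 11.98 in shPARP2 cells. Each shPARP2 array was higher, but the log2 fold change of 0.16 (95% confidence interval -0.01 to 0.32) did not pass the test (limma adjusted p = 0.198).

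Klf15, which steers amino acid and lipid use in muscle and raises the glucose transporter GLUT4 in fat, read 9.30, 9.31 and 9.31 in scPARP2 and 9.22, 9.10 and 9.27 in shPARP2 cells. Again the lines did not overlap, here with lower shPARP2 values, and the log2 fold change of -0.11 (95% confidence interval -0.28 to 0.06) did not pass (limma adjusted p = 0.374). For both genes the interval leaves room for a change smaller than that of Cebpb.

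The lineage genes Zfp423 and Dlk1 gave overlapping lines. Zfp423 read 7.43, 7.20 and 7.29 in scPARP2 and 7.46, 7.30 and 7.48 in shPARP2 cells, and the log2 difference was 0.11 (95% confidence interval -0.11 to 0.32, limma adjusted p = 0.521). Dlk1 read 8.02, 7.95 and 8.02 in scPARP2 and 8.38, 7.98 and 8.0 in shPARP2 cells. Its difference of 0.12 (95% confidence interval -0.16 to 0.41, limma adjusted p = 0.574) rested on shPARP2 replicate 1, as it was -0.005 without that array.

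The products of the mature fat cell were dim in both lines. Adipoq, the hormone adiponectin, read 4.99, 4.95 and 5.23 in scPARP2 and 5.11, 5.02 and 5.28 in shPARP2 cells, at a signal percentile of 14.2. Fabp4, the fatty acid carrier of adipocytes, read 5.37, 5.17 and 5.28 in scPARP2 and 5.18, 5.17 and 4.90 in shPARP2 cells, at a signal percentile of 15.1. The values of the lines overlapped for both genes. The log2 fold changes were 0.08 (95% confidence interval -0.18 to 0.34, limma adjusted p = 0.690) for Adipoq and -0.19 (95% confidence interval -0.44 to 0.06, limma adjusted p = 0.292) for Fabp4. Below the 40th percentile 3.34% of all genes were called, compared with 34.1% at or above it. Whether dim genes changed less or were harder to detect was not tested.

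**Figure D2:**
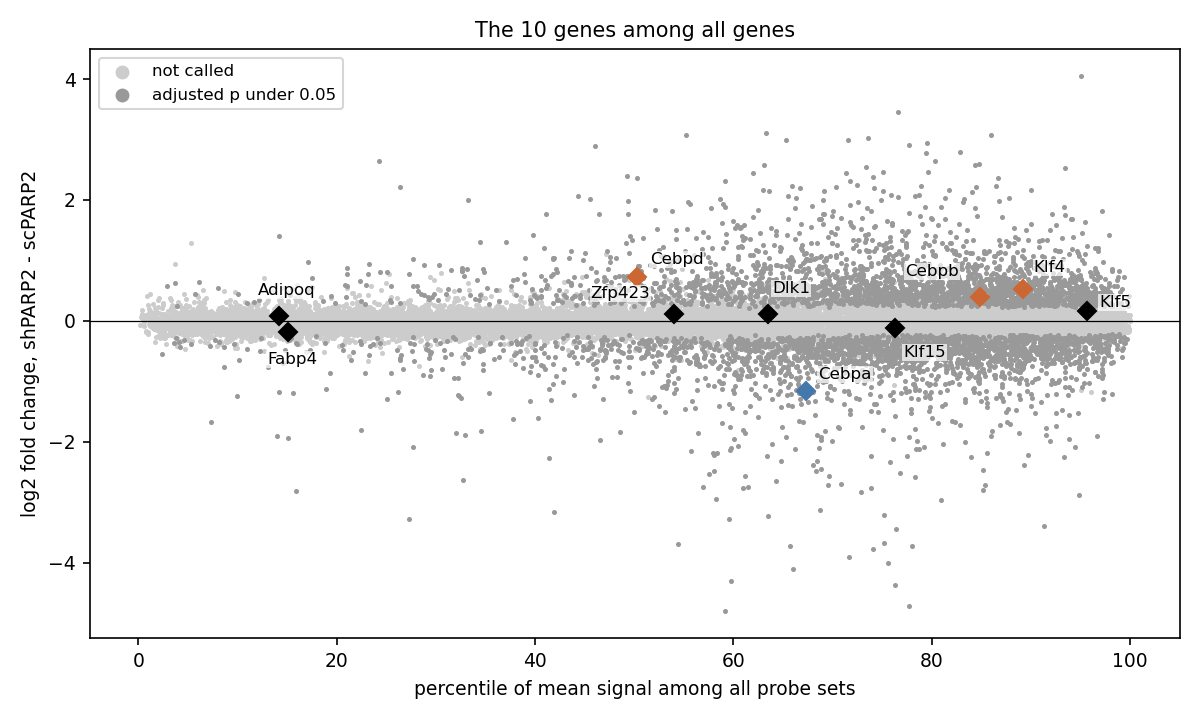
Log2 fold change between the lines (vertical axis) against the percentile of the mean signal (horizontal axis) for all 19938 genes in grey and the 10 genes as diamonds, blue for lower, orange for higher and black for not called. Cebpa at -1.16 stands lowest of the 10, and Adipoq and Fabp4 lie at the dim end, where few genes are called.

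In the C/EBP family as a whole, 2 of the 6 measured genes rose and 2 fell (66.7% called, beside 24.0% of all genes). Most of these calls are Cebpa, Cebpb and Cebpd, which were chosen with earlier results of these data known. Of the 3 other measured genes, 1 was called (33.3%). All 6 lie at or above the 40th percentile of signal, where 34.1% of genes were called. Besides Cebpa, the gene that fell was Ddit3 (CHOP), which dimerizes with C/EBP factors and blocks their binding to their usual sites. The log2 difference of Ddit3 was -0.34 (SE 0.09, limma adjusted p = 0.0362). This call was lost without each scPARP2 replicate, without shPARP2 replicate 1 and with the replicate number as a block (adjusted p up to 0.133), which leaves Cebpa as the only lower gene of the family in these fits. Cebpg, a partner that lacks an activation domain, and Cebpe, a factor of granulocytes, had log2 fold changes of 0.0046 and -0.24, and neither passed.

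Among the 17 Krüppel-like factors, 6 rose and 4 fell (58.8% called, beside 24.0% of all genes), and their median log2 fold change was 0.02. Larger changes than that of Klf4 were found in factors outside the core of the cascade. Klf8 went from 6.05 ± 0.09 to 7.81 ± 0.14 (SD, n = 3 each), a log2 difference of 1.76 (limma adjusted p = 0.000168). Klf12, a repressor, went the other way, from 7.92 ± 0.11 to 5.95 ± 0.17 (SD, n = 3 each), a log2 difference of -1.97 (limma adjusted p = 0.000183). Klf6, which is known to repress Dlk1 in preadipocytes, rose by 1.13 on the log2 scale (limma adjusted p = 0.000265). Klf11, Klf13 and Klf16 also rose, with log2 fold changes of 0.93, 0.83 and 0.33.

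Klf2 and Klf3 are known to restrain adipogenesis. Klf3, a corepressor-binding factor, fell by 0.65 (limma adjusted p = 0.00196), whereas Klf2 had a log2 fold change of 0.21 that did not pass (limma adjusted p = 0.102). Klf7 and Klf9 were lower, with log2 fold changes of -0.41 and -0.38, but both calls were lost when any scPARP2 replicate or shPARP2 replicate 1 was left out (adjusted p up to 0.126 and 0.139 over all fits). In those fits 2 Krüppel-like factors were lower in place of 4. The call of Klf16 was also lost without each scPARP2 replicate and with the replicate block (adjusted p up to 0.0589).

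**Figure D3:**
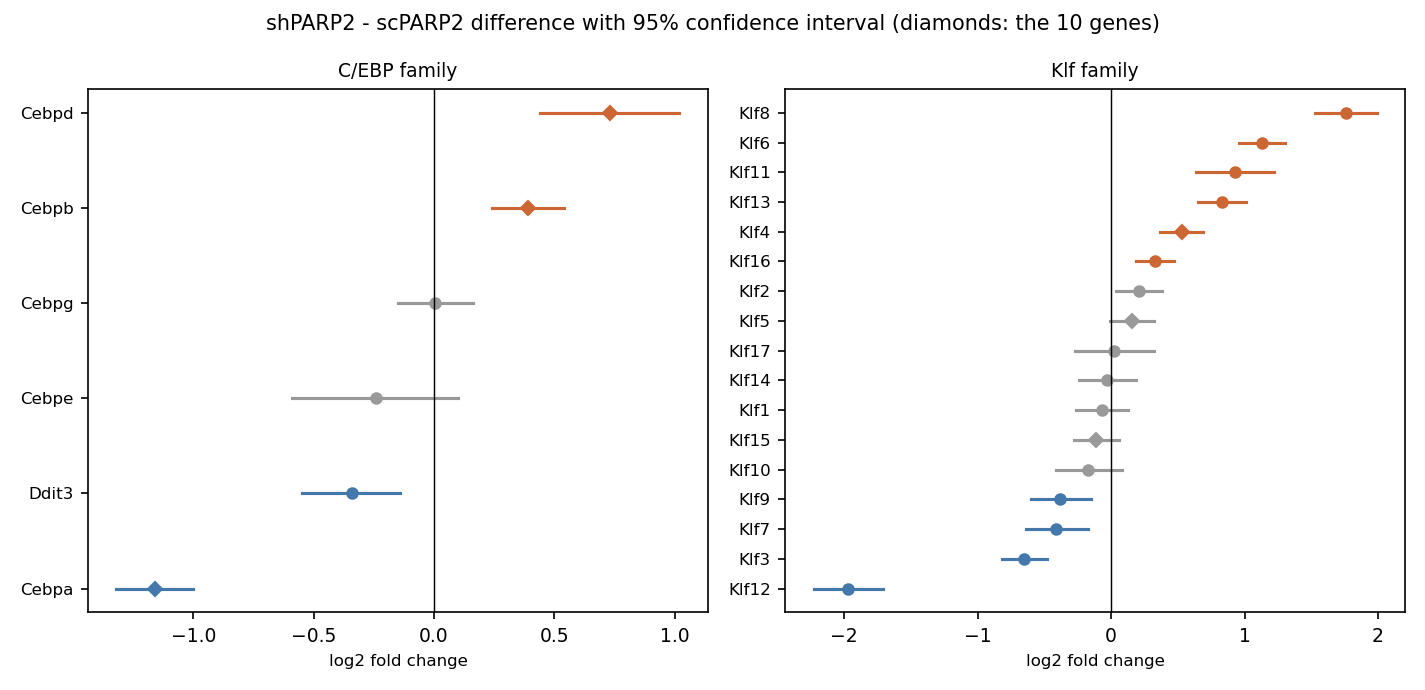
Log2 fold change between shPARP2 and scPARP2 cells (horizontal axis) with its 95% confidence interval for the measured C/EBP genes (left) and Krüppel-like factors (right). Diamonds are genes of the set of 10, circles the rest of each family, orange and blue mark genes higher and lower past an adjusted p of 0.05. The families spread to both sides, from -1.97 for Klf12 to 1.76 for Klf8.

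Of 18 measured genes that drive adipogenesis, 3 rose and 2 fell, with a median log2 fold change of 0.0012. The share called was 27.8%, beside 24.0% of all genes and 34.1% of those at or above the 40th percentile of signal. Nr3c1, the glucocorticoid receptor, rose by 0.71 on the log2 scale (limma adjusted p = 0.00102), and Ebf1, an early B-cell factor that acts in fat precursors, had a log2 fold change of 0.42 (limma adjusted p = 0.0271). Rxra, the partner of PPARγ, fell by 0.50 (limma adjusted p = 0.00314), and Insr, the insulin receptor, had a log2 fold change of -0.47 (limma adjusted p = 0.0150). The remaining higher gene, Srebf1, and Pparg were named after their values were seen. Srebf1, a regulator of lipid synthesis, had a log2 fold change of 0.38 (limma adjusted p = 0.00803). Pparg, the partner of Cebpa in the late programme, read 10.60, 10.57 and 10.54 in scPARP2 and 10.46, 10.55 and 10.44 in shPARP2 cells, and its log2 fold change of -0.09 (95% confidence interval -0.25 to 0.07) did not pass (limma adjusted p = 0.450). The calls of Ebf1, Insr and Srebf1 were lost without scPARP2 replicate 3 (adjusted p over all fits up to 0.107, 0.0667 and 0.0537), as were those of Ebf1 and Insr without scPARP2 replicate 1 or 2, and that of Ebf1 also without shPARP2 replicate 1, with centring and with the replicate block.

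Of 19 measured genes that restrain adipogenesis, 4 rose and 6 fell, with a median log2 fold change of -0.04. The share called was 52.6%, beside 24.0% of all genes and 34.1% of those at or above the 40th percentile of signal. Under that percentile lay 2 of the 19. Sox9, which keeps precursors from differentiating and represses C/EBP genes, fell by 1.73 on the log2 scale (limma adjusted p = 9.71e-05), and Tgfb1, a secreted inhibitor, fell by 0.74 (limma adjusted p = 0.00156). Hes1, the Notch effector, rose by 1.46 (limma adjusted p = 0.000604). Tsc22d3 (GILZ), a glucocorticoid-induced inhibitor, rose by 1.06 (limma adjusted p = 0.00490). Klf3 and Ddit3 are also in this list. With array weights or without dim probe sets, 7 of these genes were higher in place of 4.

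Of 25 measured adipocyte genes, Adipoq and Fabp4 included, 4 rose and 5 fell, and the median log2 fold change was -0.06. The share called was 36.0%, beside 24.0% of all genes. Lpl, the lipoprotein lipase, read 12.04, 12.07 and 12.07 in scPARP2 and 10.05, 10.19 and 9.96 in shPARP2 cells, which is bright on all arrays and far lower in shPARP2 cells. The log2 difference was -1.99 (SE 0.08, limma adjusted p = 5.01e-05), and 25.1% of the signal remained. Fasn, the fatty acid synthase, rose by 0.70, Scd1, a desaturase, by 0.53, and Dgat2, the last step of triglyceride synthesis, by 0.48 on the log2 scale (limma adjusted p = 0.00193, 0.00699 and 0.00743). The remaining higher gene, Gpam, a further enzyme of glycerolipid synthesis, rose by 0.38 (limma adjusted p = 0.00819). It kept its call in each of the 13 other fits (adjusted p up to 0.0497). Agpat2, Lpin1 and Gpd1 of the same pathway did not pass, with log2 fold changes of -0.26, -0.11 and 0.10 (limma adjusted p = 0.104, 0.453 and 0.439). Gpam and these genes were named after their values were seen. Lpl was the only lower adipocyte gene that kept its call without each scPARP2 replicate, without shPARP2 replicate 1, with the replicate block and with the arrays centred on their median, and in those fits 1 gene was lower in place of 5.

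**Figure D4:**
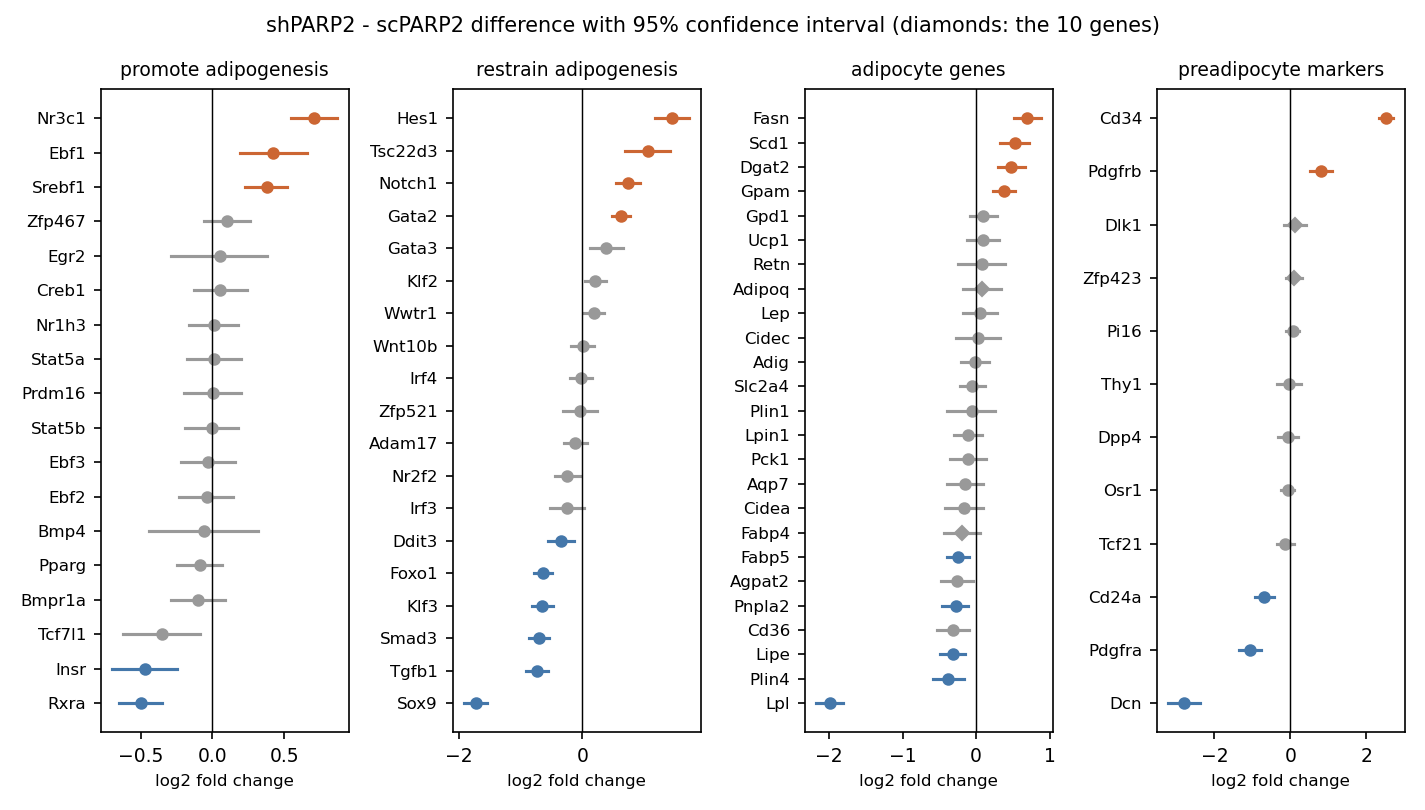
Log2 fold change between shPARP2 and scPARP2 cells (horizontal axis, with its own scale in each panel) and 95% confidence interval of genes that promote adipogenesis, genes that restrain it, adipocyte genes and preadipocyte markers. Diamonds are Adipoq, Fabp4, Zfp423 and Dlk1; orange and blue mark genes higher and lower past an adjusted p of 0.05. Sox9, Lpl and Dcn are far to the left and Cd34 far to the right, while the diamonds lie near 0.

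Markers of preadipocytes and fibro-adipogenic cells, a list that holds Zfp423 and Dlk1, had calls in both directions. Of the 10 measured besides these genes, 2 rose and 3 fell. For comparison, 24.0% of all genes were called, and 34.1% of those at or above the 40th percentile of signal. Under that percentile lay 2 of the 10. Cd34, a surface marker of progenitors, rose by 2.53 on the log2 scale (limma adjusted p = 2.76e-05), while Dcn, the matrix proteoglycan decorin, fell by 2.80 (limma adjusted p = 0.000263). The receptors for platelet-derived growth factor parted, since Pdgfra fell by 1.06 and Pdgfrb rose by 0.80 (limma adjusted p = 0.00239 and 0.00620). The remaining called gene, Cd24a, a surface marker named after its value was seen, fell by 0.68.

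Targets that C/EBP factors are known to bind in the acute-phase response also moved both ways, with 2 of 10 measured genes higher and 3 lower. Among all genes, 12.4% were called as higher and 11.6% as lower. Il6, a cytokine that induces Cebpd and is itself a target of C/EBPβ, rose by 3.07 on the log2 scale (limma adjusted p = 0.000353). The chemokine Ccl2 fell by 2.08, the copper carrier Cp (ceruloplasmin) fell by 2.47 and the siderophore binder Lcn2 fell by 1.03 (limma adjusted p = 0.00439, 2.54e-05 and 0.00188). The other higher gene, Ptx3, an innate immune protein named after its value was seen, had a log2 fold change of 0.79 (limma adjusted p = 0.0200) and lost its call without each scPARP2 replicate (adjusted p up to 0.0763).

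Of 9 genes listed here as metabolic targets of Klf15, 2 rose and 1 fell (33.3% called, beside 24.0% of all genes). Gpt2, the mitochondrial alanine transaminase, rose by 1.24 and Acss2, the cytosolic acetyl-CoA synthetase, by 1.04 on the log2 scale (limma adjusted p = 0.000265 and 0.0112). The place of Acss2 among the targets of Klf15 is uncertain, so its rise cannot be read as that of a target. Prodh, the proline dehydrogenase, had a log2 fold change of -0.37 (limma adjusted p = 0.0150) and lost its call without each scPARP2 replicate (adjusted p up to 0.0730).

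**Figure D5:**
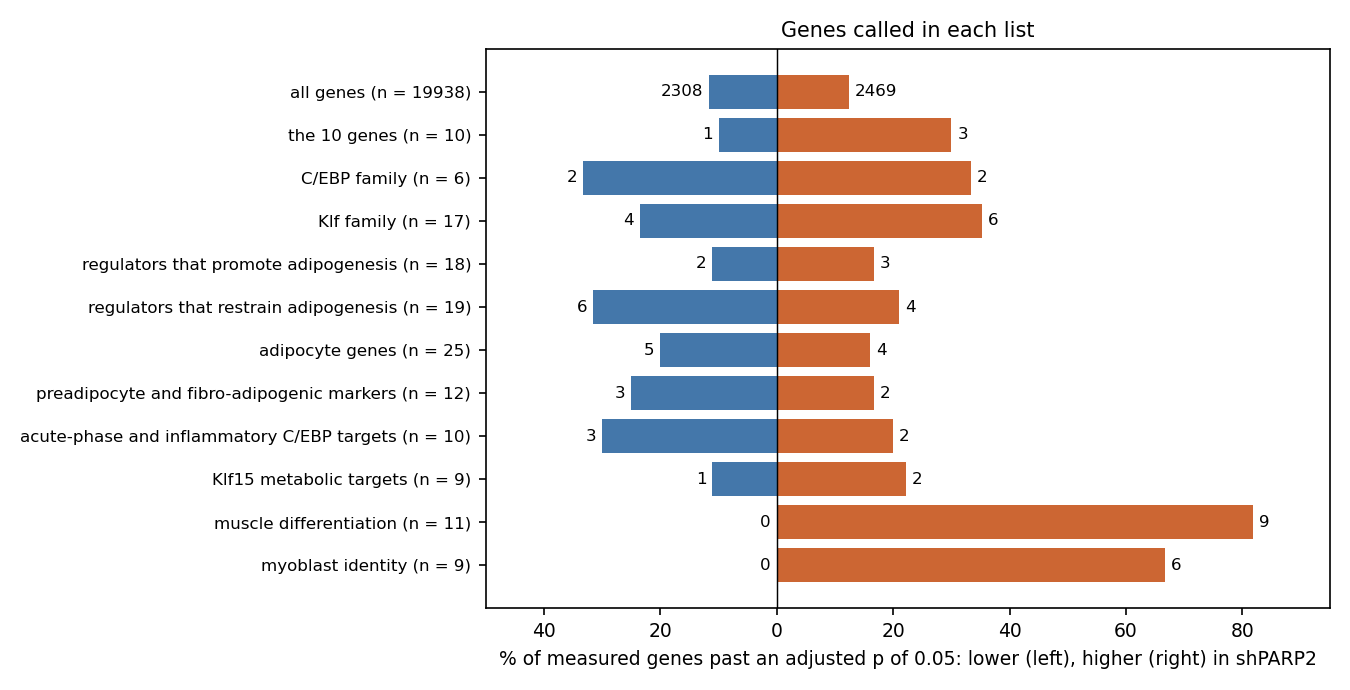
Share of the measured genes of each list, in percent, that passed an adjusted p of 0.05 as lower (blue, left) or higher (orange, right) in shPARP2 cells, with the number of genes at the end of each bar. Most lists hold calls in both directions, while the muscle lists hold 9 and 6 higher and 0 lower genes.

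The cell type was checked against marker lists. Of 9 myoblast markers, 8 lay above the median probe set, which does not by itself show expression. Pax7, named after its value was seen, was among the 8 at only the 50.6th percentile. In shPARP2 cells 6 of the 9 rose and 0 fell in limma (66.7% called, beside 24.0% of all genes). Of 11 genes of muscle differentiation, 9 rose and 0 fell (81.8% called), with a median log2 fold change of 1.02. At an unadjusted p under 0.05 each of these lists held 1 lower gene. When a scPARP2 replicate or shPARP2 replicate 1 was left out, the calls of Des among the former and of Ckm and Actc1 among the latter were lost (limma adjusted p up to 0.148, 0.182 and 0.0717), and these genes were named for that after their values were seen. The summed linear signal of these 11 genes was 8971 to 9662 in scPARP2 and 18420 to 24287 in shPARP2 cells, and the part of this difference in the changes of the 10 genes was not tested. The summed signal of 7 measured adipocyte markers was 957 to 971 in scPARP2 and 837 to 930 in shPARP2 cells, with 5 of them below the median probe set. Only Lipe, the brightest of the 7, was called, with a log2 fold change of -0.32 (limma adjusted p = 0.0217). That call was lost in 6 of the 13 other fits, and the median log2 fold change of the list was 0.02. In RNA from whole cultures, fewer cells of a kind and less RNA per cell cannot be told apart. The summed signal of 7 macrophage and leukocyte markers was 672 to 707 and 570 to 617, and 1 of them (Cd68, also a lysosomal protein) was lower while Ptprc, which defines leukocytes, was at a signal percentile of 29.5. Lyz2 of the same list, named after its value was seen, did not overlap between the lines and had a log2 fold change of 0.67 that did not pass (unadjusted p = 0.0110, limma adjusted p = 0.0565). Of 6 measured osteoblast and chondrocyte markers, 1 fell, which was Sox9, and their summed signal was 3033 to 3202 and 1394 to 1474. Sox9 was the brightest of the 6, so the sum mostly followed that gene. The other 5 were not called, with log2 fold changes from -0.07 (Acan) to 0.16 (Ibsp). No marker of endothelial or epithelial cells, 4 of each, was called in limma, and at an unadjusted p under 0.05 there was 1 (lower) among the former and 0 among the latter.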

How the data were processed

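Total RNA of C2C12 cells was hybridized to Affymetrix whole-transcript mouse gene arrays, 3 for each line. The deposited table holds log2 expression values for which the submitters' processing notes name RMA (background correction, quantile normalization and summary of probes, run by the authors), and no source used here states its version or the array library. The log2 values of 35556 probe sets were used as deposited. Arrays give no read depth, and their number limits the precision.

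Gene names came from the platform annotation. A single gene is named for 21789 probe sets and several genes for 1621, while 12146 are unnamed here. A gene was read from the single-gene probe set with the highest mean over the 6 arrays.

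shPARP2 was set against scPARP2 in limma 3.58.1 under R 4.3.3 (lmFit, then eBayes, without covariates), as in the methods of the study, and p-values were adjusted by Benjamini-Hochberg across the whole table, with a threshold of 0.05. Intervals are at 95%. The calculation was tested on simulated data. The members and gene lists were chosen with earlier results of these data known. All 10 genes are described; of each list, up to 4 further genes with the largest change among those called are named, or the 2 with the smallest p where none was, beside any gene of both families. The 3 genes with the closest pattern were taken by Pearson r over the 6 arrays. Alternatives were quantile normalization, centring on the array median, array weights, leaving out probe sets under the 40th percentile, a robust variance with a trend, the replicate number as a block, a fit of single-gene probe sets alone, other thresholds, averaging the probe sets of a gene and leaving out each array. Promoters were from RefSeq (GRCm38.p6). Figures were drawn with matplotlib 3.10.9.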

Additional observations from a re-analysis of the deposited data

How the results depend on the processing

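The calls of Cebpa, Cebpb, Cebpd and Klf4 and their directions were kept under quantile normalization, centring, the filter on dim probe sets, array weights, a robust variance with a trend, single-gene probe sets, the replicate block and without each array; the log2 fold changes ranged from -1.20 to -1.12, 0.35 to 0.41, 0.62 to 0.80 and 0.50 to 0.56. The 6 genes not called stayed so, except that Adipoq and Fabp4 were not fitted without the dim probe sets. The members that passed numbered 3 higher and 1 lower at an adjusted p under 0.01 and at an unadjusted p under 0.05, but 1 higher (Cebpd) and 1 lower (Cebpa) with a change of at least 1.5-fold. Without shPARP2 replicate 1 the log2 fold change of Dlk1 was -0.005; over the arrays left out it ran from -0.005 to 0.19. Every member has a single probe set, so the mean over probe sets changes nothing.

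Without 1 array, the higher genes numbered 1390 to 2448 and the lower ones 1281 to 2721 of all genes, and the higher probe sets 1842 to 3449 and the lower ones 1761 to 3782. The lower probe sets numbered 4941 with array weights. Centring gave 2388 higher and 1740 lower genes. With the replicate number as a block, 1790 genes were higher and 1660 lower. No pairing by replicate number was seen, as the deviations of arrays with the same number correlated at -0.05, 0.09 and 0.01. Those of arrays with unlike numbers correlated at -0.10 to 0.09. Such values cannot show whether samples of the same number were handled together. Of the 71 called genes of all lists, 55 kept their call in each of the 13 other fits. The 3 arrays per line and the dim signal of Adipoq and Fabp4 limit what could be seen.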

Other observations

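Of 15 glucocorticoid-responsive genes, among them Klf15 and Cebpd, 3 rose and 4 fell in shPARP2 cells in limma. The share called was 46.7%, beside 24.0% of all genes. Fbxo32, a ubiquitin ligase of muscle wasting, fell by 1.61 on the log2 scale and Dusp1, a MAP kinase phosphatase, by 0.74 (limma adjusted p = 0.000183 and 0.00100). Foxo1, a regulator of Fbxo32, fell by 0.64 (limma adjusted p = 0.00118), while Tsc22d3 rose. The list thus held called genes in both directions beside the higher Cebpd and the receptor Nr3c1.

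The other genes of the imprinted cluster around Dlk1 did not pass the test either. Of 6 measured, Dlk1 included, 0 were called in limma, beside 24.0% of all genes, and 2 had an unadjusted p under 0.05. Under the filter on dim probe sets, with single-gene probe sets only and with the replicate block, 1 of them was lower. Rian and Rtl1, named for the smallest p, had log2 fold changes of -0.40 and -0.23 (limma adjusted p = 0.0770 and 0.0990). Among 9 other imprinted growth genes, 1 rose and 2 fell (33.3% called, beside 24.0% of all genes), and 4 lay below the 40th percentile of signal. Peg3, a zinc finger protein, fell by 1.69 and Sgce, a sarcoglycan, by 0.53, while Igf2, the fetal growth factor, rose by 0.63 (limma adjusted p = 0.00184, 0.00564 and 0.00277).

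The patterns closest to Cebpa over the 6 arrays were those of Ppfibp1, Eps8 and Gbe1 (Pearson r = 0.9999, 0.9996 and 0.9994), and those closest to Cebpd were Rubcn, Eid2b and Ogt (0.9994, 0.9981 and 0.9979). With 2 lines of 3 arrays such coefficients are high for many genes, as 1673 genes had an r over 0.95 with Cebpa and 850 with Cebpd.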
